A study of Mus musculus with 28 samples.

Results

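Lysosomal enzymes and the proton pump that acidifies the lysosome were followed in retroperitoneal fat pads of mice fed conjugated linoleic acid (CLA). The 44 genes are a list made by function: 10 proteases, 13 glycosidases and sulfatases, 6 enzymes and cofactors of lipid breakdown, 7 membrane proteins, 6 subunits of the proton pump and 2 transcription factors of lysosomal genes. Npc2, a cholesterol carrier, and Grn, which encodes progranulin, were counted in the lipid class. A gene was measured by a probe set that names it alone, and where there were several, by the one whose signal averaged highest over the 28 arrays. In this way 43 of the 44 genes had a value, out of 18194 genes tested, and Cd63 was not analysed here.

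The study compared a control diet with a diet holding 0.5% of the trans-10 cis-12 isomer of CLA, a fatty acid that lowers body fat in mice. The labels write the mouse strain as C57BK/6J and the age as 9 weeks, and feeding lasted 1, 2, 3, 4, 7, 10 or 17 days before the pads were removed. There are 14 groups, 1 for each diet on each day, with 2 Affymetrix arrays per group, each made with 15 µg of total RNA that was extracted with Trizol from the pooled pads of 10 mice. The question put to the data was which lysosomal transcripts changed with CLA, when, and whether proteases, glycosidases and pump subunits did so alike.

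A pool averages its animals, so the spread between single mice was not measured. The labels do not settle whether both arrays of a group come from separate pools: the series record gives 140 mice, which equals 1 pool of 10 for every group, whereas 1 pool for every array would need 280. Should both arrays come from the same pool, p-values that rest on the spread between them would cover technical spread only. These are the p-values of single days and those of comparisons between days. In a whole fat pad, more cells of a type and more RNA per cell cannot be told apart.

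Lysosomes are acidic organelles in which proteins, glycans and lipids brought in by endocytosis, phagocytosis and autophagy are taken apart. The proton pump, or V-ATPase, has a cytosolic sector that splits ATP and a membrane sector that passes protons, and the acid it makes is what most of these hydrolases need to work. Many lysosomal genes are transcribed together under transcription factors of the TFEB and MITF family. In fat tissue both fat cells and macrophages hold lysosomes, and macrophages around dying fat cells are known to take up and digest their lipid there.

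With CLA most of the 43 measured genes of the list rose. Over all 7 days, with the day as the unit of replication, 28 of the 43 genes rose and 2 fell at an adjusted p under 0.05 in limma, whereas 38.5% of all genes tested passed in either direction, 18.7% upward and 19.8% downward. The median change of the 43 genes was 0.70 on the log2 scale, and that of all genes was -0.03. The risers were led by Atp6v0d2, a subunit of the pump's membrane sector, at 4.62 ± 0.76 (SE, n = 7 days), and ended with the structural membrane proteins Lamp2 and Lamp1 at 0.27 ± 0.07 and 0.26 ± 0.07. The genes that fell were Smpd1, the acid sphingomyelinase, and Arsb, a sulfatase of dermatan and chondroitin sulfate. Without replicate 2 of every group 23 of the 43 genes passed, and the calls lost were those of Lamp1, Lamp2, Ctsb, Ctsd, Hexa, Psap and Tfeb. Without day 1 37 passed, with Scarb2, Glb1, Man2b1, Tpp1, Neu1 and Idua as further risers and Gaa as a further faller. Outside the list, lysosomal genes were more divided. Of 59 other measured hydrolases, membrane proteins and pump subunits, 19 rose and 13 fell over all 7 days (54.2%), with a median of 0.03.

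From day 2 on more of these genes rose than fell. On day 1, 3 genes rose and 7 fell, with a median of -0.18, where 18.8% of all genes passed, 7.96% upward and 10.8% downward, so that the day 1 counts are near the background. On day 2, 10 rose and 2 fell, with a median of 0.33, where 10.2% of all genes passed, 4.84% upward and 5.34% downward. The count of risers was 25 on day 3 (1 fell), 27 on day 4 (2 fell) and 26 on day 7 (1 fell). On these days 22.3%, 24.1% and 17.3% of all genes passed in either direction, and 11.3%, 12.8% and 8.74% passed upward. The count of risers stayed at 27 on day 10 and 25 on day 17, with 1 gene down on either day. The background was 20.3% on both, with 10.0% of all genes up and 10.2% down on day 10, and 11.5% up and 8.78% down on day 17. The median change was 0.77 on day 3, 1.24 on day 4, 1.03 on day 7, 0.88 on day 10 and 0.81 on day 17, while the median of all genes stayed between -0.07 and 0.01.

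**Figure D1:**
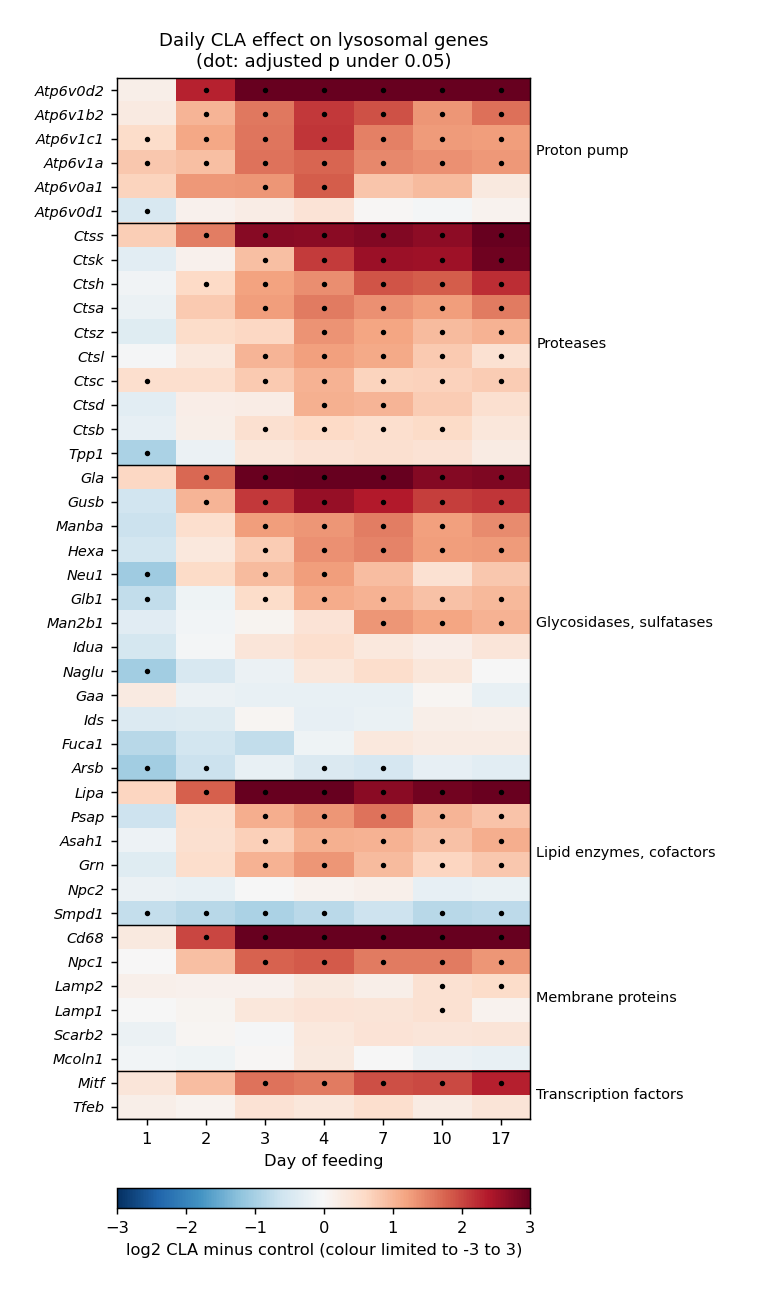
Log2 difference between CLA and control arrays (colour, limited to -3 to 3) of 43 lysosomal genes (rows, grouped by class) on the 7 days of feeding (columns), with a dot where the adjusted p was under 0.05. Day 1 is mostly pale or blue, with 3 genes up and 7 down, and from day 3 on most proteases and pump subunits are red, while Smpd1 and Arsb stay blue on all days.

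The 2 arrays of a group correlated at 0.979 to 0.995 across genes, and the small number of arrays limits the precision of every daily value. The arrays of the first days differ from the rest in ways that bear on these counts. Replicate 1 of control day 2 stands apart from the other controls: its score on the first principal component, which holds 54.1% of the variance, was 2.79, and those of the other 13 controls lay between 36.5 and 47.6. It was the highest of the 14 controls for 16 of the 43 genes. Without it, 14 genes rose and 3 fell on day 2, with a median of 0.40, and 29 genes passed over all 7 days. Without replicate 2 of the same group 2 genes passed on day 2, and without CLA day 2 replicate 2, 7 passed. On day 1 the mean excess of 3′ over 5′ signal of Actb and Gapdh, a measure of RNA quality, was 2.02 and 1.78 on the CLA arrays and 2.05 and 0.83 on the control arrays, and on all other arrays it lay between 0.60 and 1.46. With that measure as a covariate, 2 genes rose and 5 fell on day 1, and the median was -0.13. The number of genes that passed on day 1 was 4 without CLA day 1 replicate 1 and 5 without control day 1 replicate 2. With only the 4 arrays of the day in the fit, 0 genes passed on day 1 and 0 on day 2 in limma, and 9 and 13 had an unadjusted p under 0.05.

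Promoters of the listed genes, whether or not they rose, were searched for a known run of letters and its longer form. An E-box, CACGTG, is the core of the element that TFEB and its relatives are known to bind at lysosomal genes, and TCACGTGA is its longer form. Both read the same on either strand, and each match of the longer form holds a match of the core. RefSeq promoters on GRCm38.p6, from 250 bases before to 50 bases after the gene start, were given for 36 of the 43 genes. CACGTG was present in 11 of the 36 (30.6%), against 7.15% of 32851 promoters and 8.09% of 27025 genes. TCACGTGA was present in 6 of the 36 (16.7%), against 0.974% of promoters and 1.13% of genes. The 6 genes are Gla, Atp6v1a, Ctsd and Ctsa, which rose over all 7 days, and Mcoln1 and Atp6v0d1, which did not pass. For the 4 risers the 250 bases before the gene start are printed 5′ to 3′ on the gene's strand, with the TCACGTGA matches in capitals. They are chrX:134601006-134601255 (minus strand) for Gla, chr16:44139260-44139509 (minus strand) for Atp6v1a, chr7:142387828-142388077 (minus strand) for Ctsd and chr2:164833523-164833772 (plus strand) for Ctsa.
Gla: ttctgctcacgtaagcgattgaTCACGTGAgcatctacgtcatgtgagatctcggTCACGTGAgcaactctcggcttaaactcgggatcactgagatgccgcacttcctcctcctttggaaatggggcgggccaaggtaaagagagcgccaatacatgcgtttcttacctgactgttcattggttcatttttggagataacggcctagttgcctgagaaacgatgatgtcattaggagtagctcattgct
Atp6v1a: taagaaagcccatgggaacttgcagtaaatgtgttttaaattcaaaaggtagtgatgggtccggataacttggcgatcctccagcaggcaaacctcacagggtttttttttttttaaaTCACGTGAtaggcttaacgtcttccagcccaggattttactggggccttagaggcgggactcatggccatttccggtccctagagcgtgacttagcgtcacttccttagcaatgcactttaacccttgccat
Ctsd: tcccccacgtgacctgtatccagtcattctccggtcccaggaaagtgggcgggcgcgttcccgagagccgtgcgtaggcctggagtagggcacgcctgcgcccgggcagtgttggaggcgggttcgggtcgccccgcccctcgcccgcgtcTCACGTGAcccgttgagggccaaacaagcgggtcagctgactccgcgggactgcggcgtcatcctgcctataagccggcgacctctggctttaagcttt
Ctsa: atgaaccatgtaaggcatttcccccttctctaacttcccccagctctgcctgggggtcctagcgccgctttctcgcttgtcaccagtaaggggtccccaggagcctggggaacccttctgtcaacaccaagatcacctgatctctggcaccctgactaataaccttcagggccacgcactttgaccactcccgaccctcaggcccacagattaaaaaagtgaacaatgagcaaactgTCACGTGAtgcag

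In these windows Gla holds a pair of matches, whose first bases lie 228 and 195 bases before the gene start. In Atp6v1a the match starts 132 bases before the gene start, in Ctsd 99 bases and in Ctsa 13 bases. Ctsa holds another match beyond the printed bases, whose first base lies 4 bases after the gene start. Genes with and without these letters both include risers. The 11 genes with CACGTG had 6 risers, 0 fallers and a median of 0.49 over all 7 days, and the 25 without it had 15 risers, 2 fallers and a median of 0.70. The 6 genes with TCACGTGA had 4 risers and a median of 0.79, and the 30 without it had 17 risers, 2 fallers and a median of 0.54. A match is a description of the sequence, and binding at these promoters was not measured.

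Of the 6 pump subunits 5 rose over all 7 days (83.3%, where 18.7% of all genes rose), with a median of 1.34. Atp6v0d2 and Atp6v0d1 encode alternative forms of the d subunit, which joins the membrane sector to the central stalk, and the d2 form is known from macrophages and osteoclasts. The control arrays read between 3.81 and 6.20 for Atp6v0d2, with a median of 4.30, and the 6.20 is the array of day 2 that stands apart. The CLA arrays read 4.39 and 4.90 on day 1, 7.83 and 7.38 on day 2, 9.55 and 9.43 on day 3, 9.80 and 9.87 on day 4, 10.84 and 10.91 on day 7, 10.70 and 10.02 on day 10, and 10.19 and 10.80 on day 17. The day 1 arrays fall among the controls, and the 12 CLA arrays of later days lie above all 14 controls, as 3.81 to 6.20 and 7.38 to 10.91 do not meet.

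The rise of Atp6v0d2 was 0.18 ± 0.38 on day 1 (adjusted p = 0.829 in limma), 2.31 ± 0.38 on day 2, 5.45 on day 3 and 6.57 ± 0.38 on day 7 (SE, n = 2 arrays per diet, adjusted p = 1.88e-09), which is a 94.7-fold difference. Without the day 2 control that stands apart, the day 2 rise was 3.21 and the rise over all 7 days 4.75. Atp6v0d2 and Gla were the 2 genes of the list with a mean control signal under 5. No detection call was used here, and whether these control values lie above background was not tested.

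Atp6v0d1, the widely expressed d subunit, read between 9.27 and 9.67 in controls (median 9.56) and between 9.10 and 9.99 with CLA (median 9.60). Its arrays overlap: 5 of the 14 CLA arrays lie above every control and 2, those of day 1, below every control. It fell by 0.49 ± 0.16 on day 1 (adjusted p = 0.0377 in limma) and was at 0.05 ± 0.10 over all 7 days (adjusted p = 0.755).

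The subunits of the sector that splits ATP rose as well. Atp6v1b2, the B subunit found in most tissues, had control signals between 8.90 and 9.67 (median 9.32). Its CLA arrays read 9.17 and 9.67 on day 1, 10.31 and 10.75 on day 2, 10.98 and 10.90 on day 3, 11.37 and 11.36 on day 4, 11.15 and 10.94 on day 7, 10.89 and 10.98 on day 10, and 11.15 and 10.90 on day 17. From day 2 on all 12 CLA arrays exceed every control, while on day 1 they overlap. The rise was 2.13 ± 0.19 on day 4 (adjusted p = 1.91e-07 in limma) and 1.42 ± 0.20 over all 7 days.

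Atp6v1a, the catalytic A subunit, and Atp6v1c1, which links the stalk to the ATP-splitting head, were the 2 genes of the list that rose on each of the 7 days, which 0.901% of all genes did. They were also the 2 whose 14 CLA arrays all lay above all 14 control arrays, against 0.830% of all genes. Atp6v1a rose by 0.81 ± 0.23 on day 1, 1.75 on day 4 and 1.31 ± 0.12 over all 7 days. The corresponding values of Atp6v1c1 were 0.56 ± 0.16, 2.16 and 1.36 ± 0.16. Atp6v0a1, a proton-passing a subunit, rose by 1.34 ± 0.46 on day 3 and 1.81 ± 0.46 on day 4, did not pass on the other days, and rose by 1.02 ± 0.16 over all 7 days, whereas another of its probe sets, with a mean signal of 5.04, was at -0.19.

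**Figure D2:**
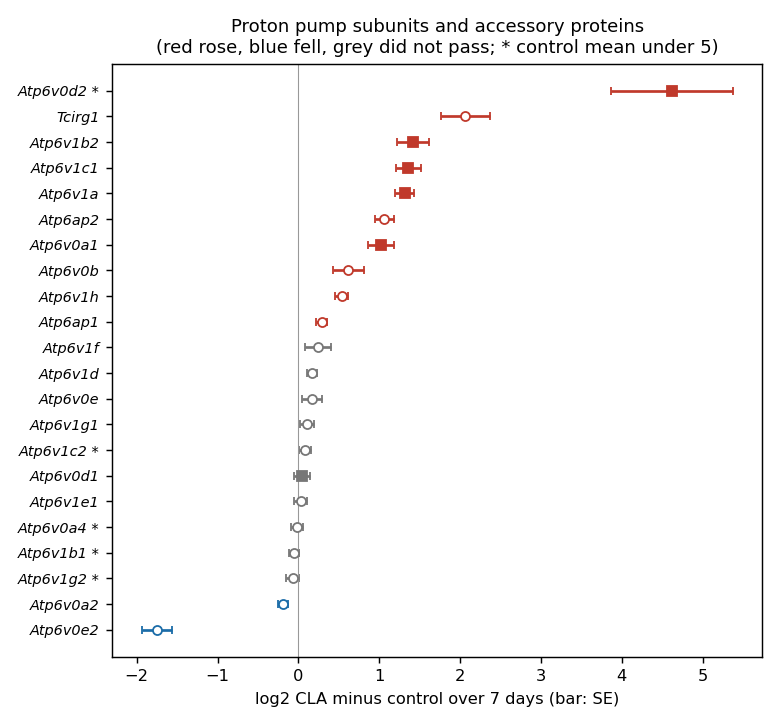
Log2 difference between CLA and control over all 7 days (horizontal axis, bars are the SE) for the 6 pump subunits of the list (filled squares) and 16 other pump subunits and accessory proteins (open circles). Atp6v0d2 lies at 4.62, far to the right of the remaining genes, Atp6v0d1 sits near 0, and Atp6v0e2 is the furthest to the left at -1.75.

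Other genes of the pump were counted as well. Of 16 measured subunits and accessory proteins outside the list, out of 17 listed, 5 rose and 2 fell over all 7 days, with a median of 0.14. Their share, 43.8%, is near the 38.5% of all genes. Tcirg1, the a3 subunit of lysosomes and osteoclasts, rose by 2.06 ± 0.30, and Atp6ap2, the accessory protein also known as the prorenin receptor, by 1.06 ± 0.12. Atp6v0e2, a small subunit of the membrane sector, fell by 1.75 ± 0.18. Of these 16 genes, 4 were under 5 on every array.

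Each of the 9 cathepsins rose over all 7 days, where 18.7% of all genes rose, with a median of 0.76. Cathepsins are the main proteases of the lysosome, most of them cysteine proteases, with Ctsd as the aspartic one and Ctsa as a serine carboxypeptidase. On day 1 the 1 that rose was Ctsc (11.1%), near the 7.96% of all genes. The count of risers was 2 on day 2, 7 on day 3, 9 on days 4 and 7, 8 on day 10 and 7 on day 17. Of all genes 4.84% rose on day 2, and between 8.74% and 12.8% on the later days. In limma 0 fell on any day, and 0 did so at an unadjusted p under 0.05. Their median change was -0.19 on day 1, 1.34 on day 4 and 1.04 on day 17. Tpp1, a tripeptidyl peptidase and the remaining protease of the list, fell by 0.94 ± 0.17 on day 1 and was at 0.12 ± 0.17 over all 7 days.

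Ctss, cathepsin S, is known for cleaving the invariant chain in antigen-presenting cells. Ctss read between 9.81 and 11.73 in controls, with a median of 10.06 and the 11.73 on the day 2 array that stands apart. With CLA it read 10.93 and 10.82 on day 1, 12.40 and 12.34 on day 2, 12.58 and 12.77 on day 3, 12.68 and 12.79 on day 4, 12.84 and 13.17 on day 7, 13.22 and 12.84 on day 10, and 13.07 and 12.95 on day 17. On each day both CLA arrays lie above both controls of that day, and from day 2 on above all controls. The rise was 0.73 ± 0.34 on day 1 (adjusted p = 0.163 in limma), 2.74 on day 3, 3.11 ± 0.34 on day 17 and 2.33 ± 0.27 over all 7 days. On day 2 it was 1.54 with all arrays and 2.43 without the control that stands apart.

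Ctsk, cathepsin K, is known as the collagen-cleaving protease of osteoclasts and is also made by macrophages and fibroblasts. Its controls lay between 6.40 and 7.78, with a median of 7.44. The CLA arrays read 6.26 and 6.87 on day 1, 7.60 and 7.38 on day 2, 8.42 and 8.59 on day 3, 9.22 and 9.80 on day 4, 10.07 and 10.05 on day 7, 10.42 and 9.99 on day 10, and 10.24 and 10.26 on day 17. CLA and control arrays overlap on days 1 and 2 and separate from day 3 on. The difference went from -0.32 ± 0.26 on day 1 through 0.90 on day 3 and 2.09 on day 4 to 2.92 ± 0.26 on day 17 (adjusted p = 1.70e-07 in limma), and was 1.55 ± 0.41 over all 7 days.

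The remaining cathepsins rose by less. Ctsh, an aminopeptidase, rose over all 7 days by 1.29 ± 0.26 and was highest on day 17 at 2.22. Ctsa, which also protects neuraminidase and beta-galactosidase in a complex, rose by 1.09, Ctsz by 0.76, Ctsl by 0.71, Ctsc by 0.70, Ctsd by 0.49 and Ctsb by 0.34. All of these 6 were highest on day 4, at values between 0.60 for Ctsb and 1.57 for Ctsa, which had the same value on day 17. Their further probe sets differ in places. Those of Ctsb gave 1.56, 1.07, 0.71 and 0.28, those of Ctsc -0.01 and 0.04, that of Ctsl 1.43, and that of Ctsa, with a mean signal of 4.62, gave 0.03. For Ctsz they gave 1.11 and 0.81, and for Ctsh 1.09. The call of Ctsd over all 7 days was lost in 14 of 48 alternative settings, among them the removal of any day but day 1, of either replicate number, and of 5 single arrays: replicate 2 of CLA days 1, 2 and 3 and replicate 1 of control days 1 and 2.

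**Figure D3:**
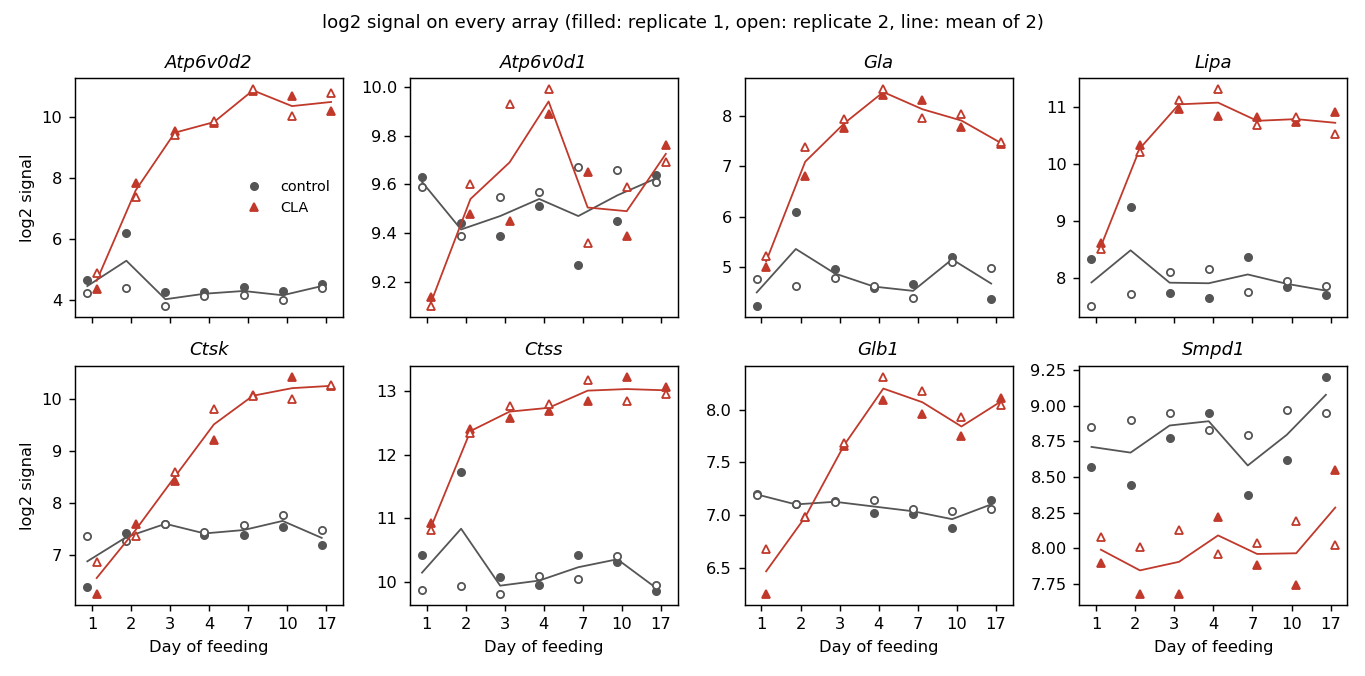
Log2 signal on each of the 28 arrays by day of feeding for 8 lysosomal genes, with controls as grey circles and CLA as red triangles, replicate 1 filled and replicate 2 open, and lines through the mean of 2 arrays. Ctsk climbs from 6.26 on day 1 to 10.42 on day 10, Glb1 starts below its controls and ends above them, Smpd1 stays below its controls, and the filled control on day 2 is raised for Atp6v0d2, Gla, Lipa and Ctss.

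Fewer glycosidases rose over all 7 days than on each day from day 3 on. Of 11 glycosidases 4 rose and 0 fell over all 7 days in limma, and 7 and 0 did so at an unadjusted p under 0.05. The share that passed, 36.4%, is near the 38.5% of all genes, where 18.7% passed upward. The median of the glycosidases was 0.53, and the 7 that did not pass lay between -0.21 and 0.56. Among these 7, Man2b1 and Glb1 had mean differences of 1.19 and 0.96 over days 7, 10 and 17. The others of the 7 lay between -0.13 and 0.73 on those days. Hexa and Manba, which passed, had means of 1.34 and 1.39. On day 1, 3 had fallen and 0 had risen in limma (27.3%), where 18.8% of all genes passed and 10.8% fell. At an unadjusted p under 0.05, 8 had fallen and 0 had risen, and the median was -0.57. From day 3 on 6 had risen on each day (54.5%), where 8.74% to 12.8% of all genes rose. Late minus early is the mean effect of days 7, 10 and 17 minus that of days 1, 2 and 3. It passed upward in 8 of the 11, in 3 of the 9 cathepsins and in 2 of the 6 pump subunits. Of all genes 6.20% passed upward and 9.71% in either direction. At an unadjusted p under 0.05 late minus early was higher in 10 of the 11 glycosidases and 8 of the 9 cathepsins. Whether these classes differ was not tested.

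Gla, the alpha-galactosidase lost in Fabry disease, had controls between 4.23 and 6.10 (median 4.73), the 6.10 again on the day 2 array that stands apart. Its CLA arrays read 5.01 and 5.23 on day 1, 6.81 and 7.38 on day 2, 7.76 and 7.95 on day 3, 8.42 and 8.53 on day 4, 8.31 and 7.96 on day 7, 7.78 and 8.04 on day 10, and 7.45 and 7.49 on day 17. On every day both CLA arrays were above both controls of the day. The rise peaked at 3.86 ± 0.32 on day 4 (adjusted p = 9.68e-08 in limma), a 14.5-fold difference, and was 2.62 ± 0.35 over all 7 days. Its other probe sets gave 1.46 and 0.09, the latter with a mean signal of 2.50.

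Gusb, the beta-glucuronidase, read between 7.94 and 8.52 in controls, with a median of 8.29. With CLA the arrays were at 7.09 and 8.01 on day 1, 9.12 and 9.74 on day 2, 10.30 and 10.44 on day 3, 10.74 and 11.03 on day 4, 10.66 and 10.61 on day 7, 10.27 and 10.62 on day 10, and 10.35 and 10.41 on day 17. On day 1 they overlap with controls, and from day 2 on they lie above every control. The difference was -0.57 ± 0.24 on day 1, 2.61 ± 0.24 on day 4 and 1.68 ± 0.35 over all 7 days.

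Manba, a beta-mannosidase, and Hexa, the hexosaminidase subunit lost in Tay-Sachs disease, rose by 0.95 ± 0.25 and 0.85 ± 0.23 over all 7 days and were highest on day 7, at 1.54 and 1.48. Glb1, the beta-galactosidase, and Neu1, the sialidase, were the 2 genes of the list that fell on a day and rose on another. Glb1 fell by 0.73 ± 0.14 on day 1 and rose by 1.12 ± 0.14 on day 4, and Neu1 fell by 1.07 ± 0.33 on day 1 and rose by 1.25 ± 0.33 on day 4. Over all 7 days they were at 0.53 and 0.56 (adjusted p = 0.0964 and 0.105 in limma). Man2b1, an alpha-mannosidase, rose only on days 7, 10 and 17, by 1.32, 1.20 and 1.04.

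The other glycosidases and the sulfatases did not rise on any day. Gaa, the acid alpha-glucosidase, was at -0.11 ± 0.08 over all 7 days, Fuca1, the alpha-fucosidase, at -0.21 ± 0.16 (-0.64 with its most variable probe set), and Idua, the alpha-iduronidase, at 0.17 ± 0.12. Naglu, an N-acetylglucosaminidase of heparan sulfate, fell by 1.04 ± 0.31 on day 1 and was at -0.07 over all 7 days. Ids, the iduronate sulfatase, was at -0.13 ± 0.09. Idua, Naglu, Ids and Arsb all act on glycosaminoglycans, and 0 of these 4 rose on any of the 7 days in limma, where 1 daily rise among them had an unadjusted p under 0.05.

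Arsb signals lay between 8.70 and 9.24 in controls (median 8.98). The CLA arrays read 8.03 and 7.75 on day 1, 8.22 and 8.23 on day 2, 8.53 and 8.72 on day 3, 8.62 and 8.76 on day 4, 8.57 and 8.55 on day 7, 8.85 and 8.66 on day 10, and 8.84 and 8.53 on day 17. On each day both CLA arrays were below both controls, and 10 of the 14 were below every control. Arsb fell by 1.04 ± 0.16 on day 1 (adjusted p = 8.40e-05 in limma) and by 0.49 ± 0.10 over all 7 days.

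The 6 genes counted as enzymes and cofactors of lipid breakdown include the cholesterol carrier Npc2 and Grn. Of the 6, 4 rose and 1 fell over all 7 days (83.3%, where 38.5% of all genes passed), with a median of 0.72. Lipa, the acid lipase that frees fatty acids and cholesterol from lipids in the lysosome, read between 7.50 and 9.25 in controls (median 7.85), with 9.25 on the day 2 array that stands apart. With CLA it was at 8.61 and 8.50 on day 1, 10.34 and 10.22 on day 2, 10.97 and 11.14 on day 3, 10.85 and 11.32 on day 4, 10.84 and 10.69 on day 7, 10.75 and 10.84 on day 10, and 10.92 and 10.54 on day 17. Day 1 lies inside the full control range although above both controls of its day, and the later 12 arrays lie above all controls.

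Lipa rose by 1.80 ± 0.35 on day 2, 3.18 ± 0.35 on day 4 (adjusted p = 1.62e-06 in limma) and 2.47 ± 0.30 over all 7 days. From day 3 to day 17 its daily rise stayed between 2.71 and 3.18. Without the control that stands apart the day 2 rise was 2.56.

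Psap encodes the precursor of the saposins, which present sphingolipids to their hydrolases. Its controls lay between 10.56 and 11.38 (median 11.23). The CLA arrays read 9.61 and 10.74 on day 1, 11.51 and 12 on day 2, 12.09 and 12.50 on day 3, 12.58 and 12.64 on day 4, 12.80 and 12.31 on day 7, 12.52 and 12.21 on day 10, and 12.15 and 12.09 on day 17. Day 1 overlaps with controls, and all later CLA arrays lie above them. Psap was at -0.61 ± 0.29 on day 1, rose by 1.63 ± 0.29 on day 7 and by 0.83 ± 0.23 over all 7 days.

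Asah1, the acid ceramidase, and Grn, which encodes progranulin, rose by 0.74 ± 0.15 and 0.70 ± 0.18 over all 7 days. Npc2, which carries cholesterol inside the lysosome, was at -0.08 ± 0.07, with daily values between -0.25 and 0.15.

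Smpd1 turns sphingomyelin into ceramide, the substrate of Asah1, and its change ran the other way. Control signals lay between 8.37 and 9.20, with a median of 8.84. With CLA it read 7.90 and 8.08 on day 1, 7.68 and 8.01 on day 2, 7.68 and 8.13 on day 3, 8.22 and 7.96 on day 4, 7.88 and 8.04 on day 7, 7.74 and 8.19 on day 10, and 8.55 and 8.02 on day 17. On all 7 days both CLA arrays were below both controls of the day, and 13 of the 14 were below every control.

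Smpd1 fell by 0.79 ± 0.05 over all 7 days (adjusted p = 1.84e-05 in limma), with daily falls between 0.62 and 0.96, and its daily call was missed on day 7 alone (adjusted p = 0.0728). Late minus early was 0.09 ± 0.19 (adjusted p = 0.820), so no difference between the first and the last days was detectable.

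Of the 6 measured membrane proteins 4 rose over all 7 days (66.7%, where 18.7% of all genes rose), with a median of 0.26. Cd68, a heavily glycosylated protein of late endosomes that is also a common macrophage marker, read between 6.90 and 9.05 in controls (median 8.14), with 9.05 on the day 2 array that stands apart. With CLA it read 7.40 and 7.99 on day 1, 9.86 and 10.94 on day 2, 10.94 and 11.61 on day 3, 11.83 and 12.12 on day 4, 11.83 and 11.48 on day 7, 11.48 and 11.68 on day 10, and 11.35 and 11.70 on day 17. The groups overlap on day 1 and are separate from day 2 on. Cd68 rose by 3.69 ± 0.40 on day 4 (adjusted p = 1.16e-06 in limma) and by 2.78 ± 0.39 over all 7 days, and on day 2 by 2.00 with all arrays and 2.65 without the control that stands apart.

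Npc1 moves cholesterol out of the lysosome together with Npc2. Npc1 controls lay between 4.36 and 6.23, with a median of 5.79. With CLA it read 4.74 and 5.47 on day 1, 6.55 and 7.03 on day 2, 7.30 and 7.98 on day 3, 7.60 and 7.70 on day 4, 7.36 and 7.14 on day 7, 7.02 and 7.50 on day 10, and 6.73 and 6.90 on day 17. From day 2 on the CLA arrays lie above all controls. Npc1 rose from day 3, by 1.84 ± 0.36 on day 4 and 1.28 ± 0.20 over all 7 days.

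Lamp1 and Lamp2, the most abundant proteins of the lysosomal membrane, rose by 0.26 and 0.27 over all 7 days. Lamp1 passed on day 10 alone among single days, at 0.46 ± 0.15, and Lamp2 on days 10 and 17, at 0.46 and 0.55. The call of Lamp2 over all 7 days was lost with its most variable probe set, at 0.06. Scarb2, the receptor that carries glucocerebrosidase to the lysosome, was at 0.19 ± 0.09 (adjusted p = 0.123 in limma). Mcoln1, a calcium channel, was at -0.04 ± 0.07, or -0.39 with its most variable probe set.

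**Figure D4:**
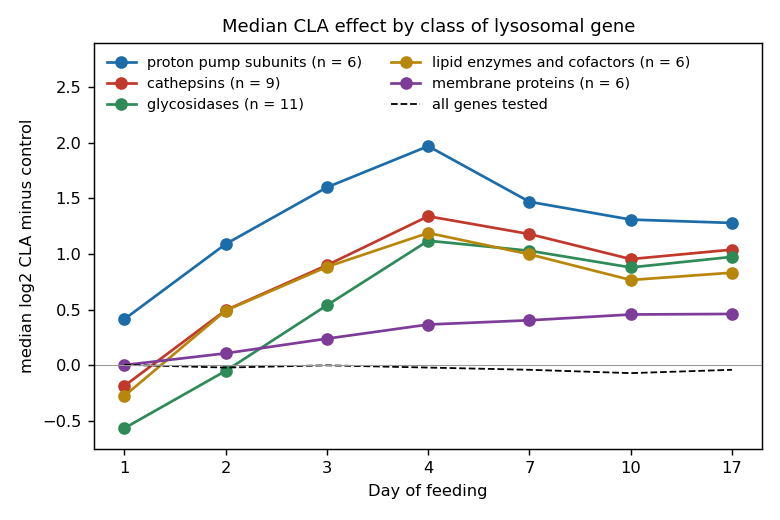
Median log2 difference between CLA and control by day (days evenly spaced on the axis) for 5 classes of lysosomal genes, with the median of all 18194 genes as a dashed line. The pump median is 0.42 on day 1 and 1.97 on day 4, the cathepsin median goes from -0.19 to 1.34, the glycosidase median from -0.57 to 1.12 and the membrane protein median from 0.00 to 0.37 over the same days.

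The transcription factors of the list differed in size. Tfeb controls lay between 5.66 and 6.38 (median 5.95) and CLA arrays between 5.82 and 6.63 (median 6.28), so the ranges overlap. Both CLA arrays were above both controls of the day on 4 of the 7 days. Tfeb rose by 0.31 ± 0.06 over all 7 days (adjusted p = 0.00446 in limma) and passed on no single day, with daily values between 0.10 and 0.50.

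Mitf, which is known from melanocytes, osteoclasts and macrophages, read between 6.83 and 8.33 in controls (median 7.07). Replicate 1 of control day 1, at 8.18, and of control day 2, at 8.33, exceed the other 12, which end at 7.42. The CLA arrays read 8.45 and 7.50 on day 1, 9.04 and 8.17 on day 2, 9.02 and 8.60 on day 3, 8.60 and 8.64 on day 4, 9.10 and 9.25 on day 7, 9.30 and 9.06 on day 10, and 9.16 and 9.28 on day 17. They overlap with controls on days 1 and 2 and lie above all of them from day 3 on. Mitf rose by 1.63 ± 0.39 on day 3, 2.33 ± 0.39 on day 17 and 1.53 ± 0.22 over all 7 days, and a dimmer probe set, with a mean signal of 3.20, gave 0.42.

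Of 12 other regulators of lysosomal genes and of their nutrient sensing, 6 rose and 1 fell over all 7 days (58.3%), with a median of 0.29. Fnip2 and Fnip1, partners of folliculin, rose by 2.10 ± 0.30 and 0.82 ± 0.19, and Tfec, another member of the MITF family, by 1.69 ± 0.27.

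The first day on which a rise passed the threshold varied between genes, and whether the onset itself differs was not tested. That day was day 1 for 3 genes, Ctsc, Atp6v1a and Atp6v1c1. It was day 2 for 8, day 3 for 14, day 4 for 2, day 7 for 1 and day 10 for 2. Another 13 genes rose on no single day. Of the genes called on day 1, 0 of 10 passed in every setting, and 0 of 12 on day 2. Calls on day 2 depend on the control array that stands apart. With its most variable probe set Ctsc was at -0.16 on day 1. The daily difference was lowest on day 1 for 35 of the 43 genes. It was highest on day 4 for 21 genes and on day 7 for 12, and 26 genes were higher on day 4 than on day 17. Day 1 is the day with the differing RNA quality measure. First days, lows and highs were not counted over all genes, so no background stands beside these counts. The 7 genes that fell on day 1 were Tpp1, Glb1, Neu1, Naglu, Arsb, Smpd1 and Atp6v0d1.

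The difference was above 0 on all 7 days for 14 genes, where 13.5% of all genes showed this, and below 0 on all 7 days for Smpd1 and Arsb, where 16.9% did. Both CLA arrays lay above both controls for 8 genes on day 1 (22.5% of all genes), 24 on day 2 (19.0%), 31 on day 3 (29.1%), 35 on day 4 (28.5%), 36 on day 7 (23.7%), 32 on day 10 (23.4%) and 36 on day 17 (30.1%). Both lay below both controls for 12 genes on day 1 (22.4%) and 5 on day 2 (23.5%), and for 3 to 5 genes on later days, where 28.7% of all genes did on day 3, 31.4% on day 4, 29.6% on day 7, 33.3% on day 10 and 33.4% on day 17. All 14 CLA arrays lay below all 14 controls for 3.58% of all genes, and the nearest of the list were Smpd1 with 13 and Arsb with 10 arrays below every control.

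Late minus early was tested for each gene. It was higher for 20 of the 43 genes and lower for 0 in limma, where 9.71% of all genes passed in either direction, and the median was 0.65. At an unadjusted p under 0.05 it was higher for 30 and lower for 0. The increases were largest in Atp6v0d2, at 3.62 ± 0.31, and Ctsk, at 2.44 ± 0.21 (SE, adjusted p = 4.86e-07 in limma for both). The F test of a diet effect that differs between the 7 days passed for 20 genes as well, against 9.82% of all genes. In the control arrays alone, 0 of the 43 genes differed between days in limma, where 0.115% of all genes did. At an unadjusted p under 0.05, 1 did, against 8.36% of all genes. The count at an adjusted p under 0.05 did not stay at 0 without control day 2 replicate 2.

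Other lysosomal genes were counted in lists written from textbook knowledge. Of 25 measured hydrolases outside the list, out of 31 listed, 6 rose and 5 fell over all 7 days, with a median of -0.04. That share, 44.0%, is near the 38.5% of all genes. Lgmn, the asparaginyl protease legumain, rose by 2.56 ± 0.33 and the phospholipase family member Pld3 by 1.92 ± 0.39. Acp5, the tartrate-resistant acid phosphatase, fell by 2.17 ± 0.17. Of 18 other membrane proteins, out of 20 listed, 8 rose and 6 fell (77.8%), with a median of 0.33. Slc11a1, the metal transporter NRAMP of phagosomes, rose by 2.52 ± 0.24, the channel Mcoln2 by 2.17 ± 0.12 and Laptm5, a protein of blood cell lysosomes, by 1.81 ± 0.24.

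Genes that deliver enzymes to lysosomes changed in both directions. Of 22 sorting genes 11 rose and 5 fell (72.7%), with a median of 0.26. Igf2r, a mannose 6-phosphate receptor, rose by 0.90 ± 0.29, whereas Sort1, the receptor sortilin, fell by 1.37 ± 0.08 and Gnptab, which makes the mannose 6-phosphate tag, by 1.01 ± 0.17. Of 7 cysteine and serine protease inhibitors 2 rose (28.6%, under the share of all genes), Serpinb6a by 1.58 ± 0.12 and Cstb, cystatin B, by 1.41 ± 0.11, and 4 of the 7 were under 5 on every array.

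Among autophagy genes more fell than rose. Of 21 measured, out of 23 listed, 1 rose and 10 fell over all 7 days (52.4%), with a median of -0.24. Bnip3, a receptor for the removal of mitochondria, fell by 1.36 ± 0.07 and Atg10 by 0.77 ± 0.08. Sqstm1, the cargo receptor p62, rose by 0.93 ± 0.23.

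Markers of the cells in a fat pad moved on the same arrays. Of 25 macrophage markers, with Cd68 left out, 23 rose and 0 fell over all 7 days in limma (92%, where 38.5% of all genes passed). At an unadjusted p under 0.05, 24 of these markers rose and 1 fell. Their median was 1.87. Their mean log2 signal lay between 7.40 and 8.52 on control arrays and between 7.85 and 10.16 on CLA arrays, and the control at 8.52 is the day 2 array that stands apart. The difference in that mean was 0.50 on day 1, 1.02 on day 2, 1.56 on day 3, 1.96 on day 4, 2.28 on day 7, 2.21 on day 10 and 2.55 on day 17. Cx3cr1 was the 1 macrophage marker under 5 on every array. Several genes of the list, among them Ctss, Lipa, Atp6v0d2 and Cd68, are known to be high in macrophages, and the part of macrophages in the lysosomal rise was not tested.

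**Figure D5:**
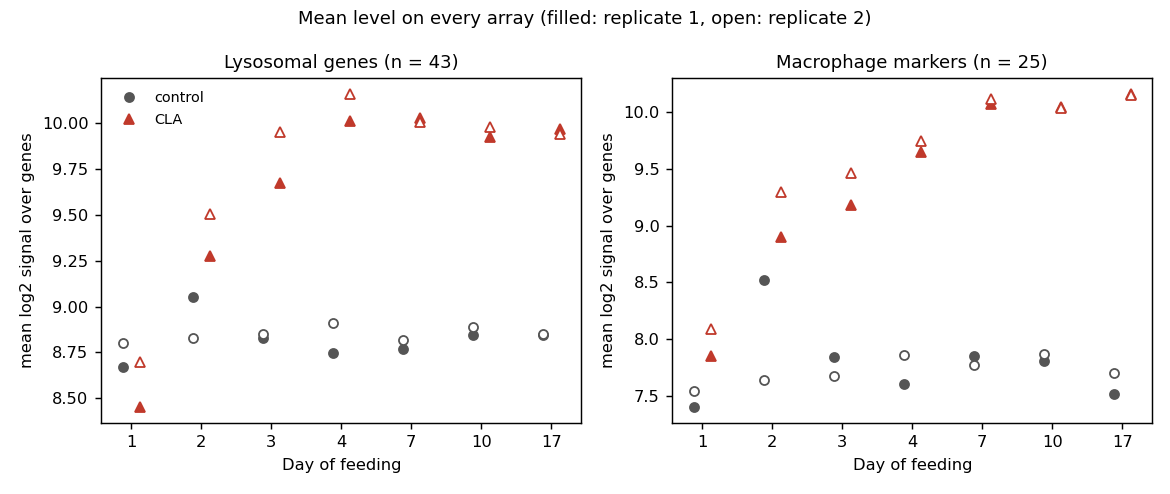
Mean log2 signal on each array by day of feeding, over 43 lysosomal genes (left) and over 25 macrophage markers (right), with controls as grey circles and CLA as red triangles, replicate 1 filled and replicate 2 open. On day 1 the lysosomal mean of the CLA arrays, 8.45 and 8.70, overlaps with the control arrays, while the macrophage mean, 7.85 and 8.09, is above both controls of that day; from day 2 on both means are higher with CLA on each day.

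Osteoclasts and melanocytes are known to use some of these genes too. Of 10 osteoclast markers, Ctsk left out, 2 rose and 1 fell over all 7 days (30%, under the 38.5% of all genes). Dcstamp rose by 1.17 and Tnfrsf11a by 0.65, from mean control signals of 4.16 and 4.22, and Acp5 fell by 2.17. Calcr and Oscar had mean signals under 3.5 in both diets. Of 6 melanocyte markers 1 passed (16.7%, also under the share of all genes), Dct, which fell by 2.04. In limma 0 of them rose (0 at an unadjusted p under 0.05), and 4 of the 6 were under 5 on every array. Of 10 adipocyte markers 9 fell (90%), with a median of -1.32, and their mean signal was 11.28 to 12.07 on control arrays and 10.07 to 11.06 on CLA arrays.

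The remaining marker lists are read against the 38.5% of all genes that passed over all 7 days. Of 8 endothelial markers 6 fell (75.0%), of 5 mesothelial markers 3 fell (60.0%) and of 7 skeletal muscle markers 3 fell (42.9%). Of 9 fibroblast and progenitor markers 3 rose and 1 fell (44.4%). Of 7 T cell markers 1 fell (14.3%), of 5 B cell markers 1 rose (20%) and of 7 neutrophil markers 1 fell (14.3%). On day 1, 2 neutrophil markers rose and 0 fell (28.6%, where 18.8% of all genes passed). Their mean log2 signal was 0.95 higher with CLA on that day. Of 6 kidney markers 0 passed over all 7 days in limma, also at an unadjusted p under 0.05. Under 5 on every array were 2 of the 7 T cell, 4 of the 5 B cell, 5 of the 7 neutrophil and 5 of the 6 kidney markers.

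More mast cell markers rose on the late days than on the early days. Of 7 mast cell markers 0 passed over all 7 days in limma, and 2 rose at an unadjusted p under 0.05. By day, 1 rose on day 1 (7.96% of all genes), and 1 fell on day 2 (5.34%) and on day 3 (11.0%). Later 2 rose on day 7, 3 on day 10 and 4 on day 17, where their median was 1.53. Of all genes 8.74%, 10.0% and 11.5% rose on these 3 days. Late minus early was higher for 5 of the 7 (71.4%, against 6.20% of all genes upward and 9.71% in either direction). Their mean log2 signal lay between 4.82 and 5.45 on control arrays and between 4.89 and 6.56 on CLA arrays, and 3 of the 7 were under 5 on every array. The part of these cells in the lysosomal values was not tested.

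The value of a gene depends on the probe set for some genes. Of the 43 genes 30 had further probe sets, 56 in all, of which 41 lay within 0.5 of the value used over all 7 days and 8 had the opposite sign. Those of opposite sign belong to Atp6v0a1, Atp6v1b2, Ctsc and Neu1, with 1 each, and to Ids and Npc2, with 2 each, of which 1 of Npc2 gave 0.63 where the set used gave -0.08.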

How the data were processed

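The deposited values are log2 probe-set signals made by the authors with RMA, per the submitters' processing notes, which name no version; the build used for the probes is not given in the sources used here. RMA corrects background, brings arrays to a common distribution and summarises probes, which compresses differences of dim genes. The values were used as deposited. Of 45101 probe sets, 34958 name 1 gene, 932 several and 9211 none; 34754 matched the RefSeq gene table (GRCm38.p6) by gene ID.

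The 44 genes and all lists were chosen with earlier results of these data known, so no p-value over a list is given. Limma 3.58.1 in R 4.3.3 was fitted on all 18194 genes, with p-values adjusted by Benjamini and Hochberg over all of them and a threshold of 0.05, two-sided. A model with 14 groups (28 arrays, 14 residual degrees of freedom) gave the daily contrasts, late minus early, the interaction and control by day. The effect over all 7 days was fitted on group means with the day as a block (6 residual degrees of freedom before moderation). The same functions were tested on simulated data. Genes shown array by array were chosen by rule: the 2 largest changes that passed in each class, genes that fell, Atp6v0d1, Tfeb and Mitf. From other lists the 3 largest changes that passed are named.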

Additional observations from a re-analysis of the deposited data

Results flagged for a closer look

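The difference between CLA and control was not the same late as early for 20 lysosomal genes, by the test of late minus early itself (days 7, 10 and 17 minus days 1, 2 and 3, limma). Among proteases late minus early was 2.44 for Ctsk, 1.41 for Ctsh, 1.19 for Ctss and 0.65 for Tpp1. Glycosidases gave 8 of the 20, with 1.35 for Gusb, 1.29 for Man2b1, 1.27 for Gla, 1.16 for Hexa, 1.07 for Glb1, 1.01 for Manba, 0.98 for Fuca1 and 0.84 for Naglu. Of the lipid genes Lipa gave 1.00, Psap 0.85 and Asah1 0.66. The membrane proteins Cd68 and Scarb2 gave 1.57 and 0.44, the pump subunits Atp6v0d2 and Atp6v1b2 gave 3.62 and 0.67, and the transcription factor Mitf gave 1.10. In some of these genes the early mean was below 0 and the late mean above 0. These means were -0.26 and 0.39 for Tpp1, -0.705 and 0.27 for Fuca1, and -0.56 and 0.28 for Naglu. For Scarb2 they were -0.055 and 0.39, for Man2b1 -0.11 and 1.19, and for Glb1 -0.10 and 0.96. Tpp1, Fuca1, Naglu and Scarb2 rose on no single day. Day 1, with the differing RNA quality measure, and day 2, with the control array that stands apart, both enter the early mean. With the RNA quality measure as a covariate 18 genes passed, and without that control array 19 did. On the same arrays late minus early was higher for 18 of 25 macrophage markers and 5 of 7 mast cell markers, and their part in these values was not tested. Groups of 2 arrays are too small to test a single array for standing apart in 1 gene.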

How the results depend on the processing

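The counts of genes that passed kept within 1.5 times of the values given under quantile normalisation, median centring, a filter on dim genes, other probe set rules, a variance trend and the RNA quality covariate. With only the 4 arrays of the day, 0 genes passed on day 1 and 0 on day 2, where the fit has fewer arrays. With single arrays left out the counts were 4 to 13 on day 1, 2 to 17 on day 2, 18 to 27 on day 3, 23 to 30 on day 4, 21 to 28 on day 7, 21 to 28 on day 10, 21 to 27 on day 17, 15 to 21 for late minus early, 18 to 22 for the interaction and 0 to 3 for control by day. Over all 7 days they were 23 to 31, arrays or a replicate number left out. Of the genes that passed, 21 of 30 did so in every setting over all 7 days, 0 of 10 on day 1, 0 of 12 on day 2, 16 of 26 on day 3 and 22 of 29 on day 4. Ctsc reversed with its most variable probe set, to -0.16 on day 1, -0.47 on day 3, -0.34 on day 4 and -0.0114 over all 7 days; the cause was not tested. The replicate numbers share deviations with correlations of 0.098 to 0.566 by day, too low on day 7 to count as pairing. With the replicate block 14, 15, 27, 32, 30, 29 and 27 genes passed on the 7 days in order, 34 over all 7 days with the 28 arrays as the unit, 23 for late minus early, 26 for the interaction and 0 for control by day. Atp6v0d2 and Gla had mean control signals under 5, and whether these lie above background was not tested. Settings without days 1 and 2, and without replicate 1 of those days, were chosen after seeing the data and gave 36 and 30 genes over all 7 days.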
